A study of Homo sapiens with 6 samples.

Results

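The genes described here build and switch on the replicative DNA helicase. They are 10 rows of the authors' deposited table of 6831 genes, picked by name, with earlier results of these data already known: the helicase subunit genes MCM2, MCM3, MCM4, MCM5, MCM6 and MCM7, the loading factor genes CDC6 and CDT1, and CDC45 and MCM10, whose products act when the helicase is activated. All 10 names were found. MOLM-13 cells, a widely used line from a human acute myeloid leukaemia and labelled wild type, received 50 nM DEG-35 or the solvent DMSO, and RNA was taken after 24 h. Per the series title DEG-35 degrades both IKZF2, a zinc-finger transcription factor, and CK1α, a protein kinase. Each group had 3 mRNA libraries, and the labels do not say whether these came from separate cultures, so p-values may reflect technical spread alone.

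Before a cell copies its DNA, each origin of replication is licensed. The origin recognition complex and CDC6 bind the origin, and with CDT1 they place a double ring of MCM2-7 around the DNA, where it waits inactive. At the start of S phase, kinases and firing factors attach CDC45 and the GINS complex, and MCM10 helps the finished helicase to open the origin. Genes of this system are known targets of E2F transcription factors and are expressed mainly in dividing cells.

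The values are 1 log2 fold change, 1 p-value and 1 adjusted p per gene, and no per-library levels were analysed here, so neither the spread between libraries nor the depth behind a value can be shown. The header leaves the order of the groups unstated. Values are read as DEG-35 over DMSO, and each direction would turn if the order were the reverse. An error is given as the standard error (SE) that a gene's p-value implies for its fold change, if the test was a Wald test. In bulk RNA, fewer cycling cells and less transcript per cell cannot be told apart. Among 8 myeloid marker genes 7 were listed in the authors' deposited table, and among 11 markers of other cells 1 was (KRT8), which shows that the 7 were detected but does not give their level. Of the 7, 6 were higher with DEG-35 and 1 lower, while 3218 of all 6831 listed genes were higher. Most of the rises were small: FLT3 stood at 0.44, PTPRC at 0.32, LYZ at 0.28 and CEBPA at 0.25 in the authors' deposited table. The monocyte growth factor receptor gene CSF1R stood at 1.57 ± 0.147 (implied SE), the surface antigen gene CD33 at 0.67 ± 0.0749 and the granule enzyme gene MPO at -0.36 ± 0.0965 in the authors' deposited table. KRT8, an epithelial keratin gene, stood at 0.89 ± 0.291 in the authors' deposited table. The part of these marker changes in the results was not tested.

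The promoters of the members were searched for known promoter words, and no word was found in every one. RefSeq promoters on GRCh38.p14 were found for 8 members (MCM2, MCM3, MCM6, MCM7, MCM10, CDC6, CDT1 and CDC45), and not for MCM4 and MCM5. They were searched on both strands for an E2F word (TTCCCGC or TTCGCGC or TTGCCGC or TTGGCGC) and for the CCAAT box, the letters CCAAT, which the factor NF-Y binds. Words on opposite strands may overlap. In the lines that follow, capitals mark these words, the base before the transcript start is position -1 and the first transcribed base is position 1. Shown first are the 100 bases before the start of MCM3 (chr6:52284743-52284842, minus strand), MCM6 (chr2:135876444-135876543, minus strand), MCM7 (chr7:100101398-100101497, minus strand, the most upstream of 3 starts) and CDT1 (chr16:88803689-88803788, plus strand). They were chosen because E2F words lie within those bases.

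MCM3: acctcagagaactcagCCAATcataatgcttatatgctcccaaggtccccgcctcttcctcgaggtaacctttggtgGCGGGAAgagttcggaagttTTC
MCM6: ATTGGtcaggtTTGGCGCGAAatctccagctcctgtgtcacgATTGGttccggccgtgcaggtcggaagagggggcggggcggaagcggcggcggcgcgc
MCM7: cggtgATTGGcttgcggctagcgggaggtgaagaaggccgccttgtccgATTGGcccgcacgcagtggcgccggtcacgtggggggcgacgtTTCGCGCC
CDT1: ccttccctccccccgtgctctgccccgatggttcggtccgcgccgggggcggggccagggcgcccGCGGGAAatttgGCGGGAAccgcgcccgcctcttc

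In MCM2 and CDC6 the E2F word lies just behind the start, at positions 4 and 9, and 30 bases around it are shown (chr3:127598399-127598428 and chr17:40287867-40287896, both on the plus strand).

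MCM2: tcacgtgaaccacttTTCGCGCGAAacctg
CDC6: aacgctgtggccattcggatTTGGCGCgag

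MCM10 and CDC45 are shown for contrast, since neither holds an E2F word in the promoters searched. Each has a pair of CCAAT boxes close together, but repeated CCAAT boxes also lie in the promoters of MCM3, MCM6, MCM7 and CDC6. For MCM10 the 125 bases before the start are given (chr10:13161433-13161557, plus strand). For CDC45 they are 30 bases over such a pair, upstream of the most downstream of 3 starts (chr22:19479802-19479831, plus strand).

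MCM10: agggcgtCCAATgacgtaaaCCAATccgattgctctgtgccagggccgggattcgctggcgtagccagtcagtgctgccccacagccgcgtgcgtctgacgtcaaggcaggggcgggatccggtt
CDC45: ccgcctCCAATgtggcCCAATcagaaagaa

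An E2F word was present in 6 of the 8 members (75.0%), and in 15.3% of 27299 genes with a promoter in the table, over windows from 250 bases before to 50 after a start. It was present in 34.9% of 2926 genes that were lower with DEG-35 in the authors' deposited table and have a promoter entry. Among the other pathway genes listed as lower, described further on, 26 of 39 (66.7%) held it, so the word is not particular to the members. The word was found in MCM2, MCM3, MCM6, MCM7, CDC6 and CDT1. MCM6 holds overlapping E2F words at positions -151 and -148 and again at -89 and -86, and in MCM3 and MCM7 a word runs across the start. A CCAAT box was present in 6 of 8 members (75.0%), all but MCM2 and CDT1, in 56.4% of those other pathway genes, in 46.0% of lower genes and in 39.7% of all genes. With 8 promoters, a share of 75.0% has an exact Clopper-Pearson 95% interval from 34.9% to 96.8%. The CHR element (TTTGAA or TTCGAA), known from genes of mitosis, was found in 1 of 8 members, MCM6, and in 19.5% of all genes. These matches are letters in a window and do not show that a factor was bound.

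All 10 genes were lower with DEG-35, and each fell by more than 1 on the log2 scale. In the authors' deposited table their log2 fold changes ran from -2.55 for MCM10 to -1.42 for MCM6, with a median of -2.08, which leaves 23.6% of the DMSO level. The authors' adjusted p was below 0.05 for 45.3% of the 15064 genes that the adjusted p-values imply were tested, and 24.0% of those tested passed as lower. The median of all lower genes in the authors' deposited table was -0.45, and that of all listed genes -0.19. A Wald test that a gene fell by more than 1, from the implied SE and with Benjamini-Hochberg adjustment over the table, passed for all 10, against 5.36% of the 6831 listed genes. The largest adjusted p of the 10 in that test was 8.74e-05, for CDT1. The fall of the median member was exceeded by 153 of the 3613 lower genes, or 4.23%.

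**Figure D1:**
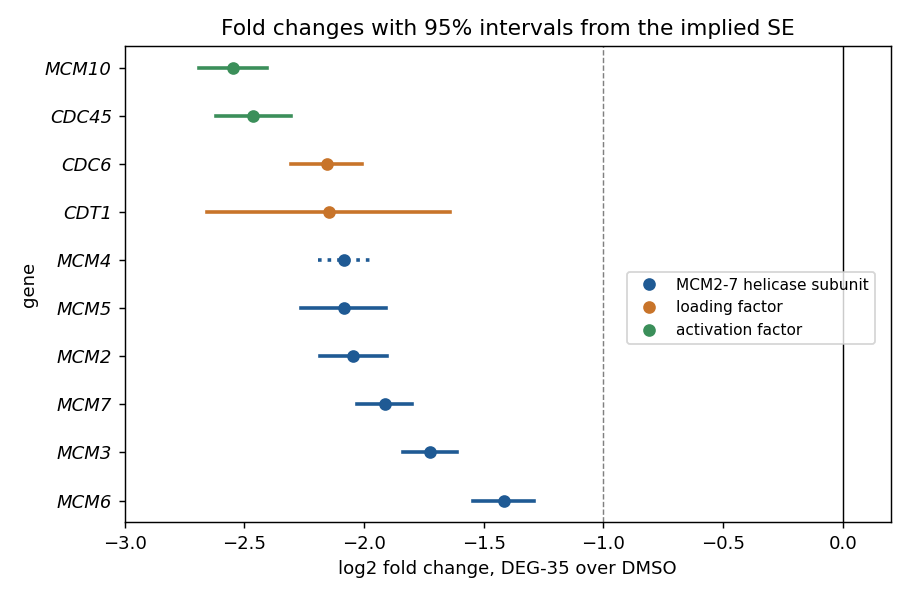
Log2 fold change (DEG-35 over DMSO) of each of the 10 genes, with points for the authors' value and lines for the 95% interval from the implied SE. For MCM4 the line is dotted because its SE is an upper limit. The dashed line marks -1, and all 10 intervals lie to its left, from MCM6 at -1.42 to MCM10 at -2.55.

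The 6 subunit genes of the helicase ring fell, but not to the same degree. MCM2-7 is a ring of 6 related ATPases in which each subunit has its own place. In the authors' deposited table MCM4 fell 4.24-fold, at -2.08, and MCM5, also 4.24-fold lower, lay at -2.08 ± 0.0902 (implied SE). These subunits gave the largest falls of the ring and differed by 1.25e-04 on the log2 scale. The authors' deposited table lists a p of 0 for MCM4, which puts its implied SE at 0.0555 or less.

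MCM2, a subunit that also binds histones, stood at -2.04 ± 0.0723 (implied SE, adjusted p = 1.57e-173) in the authors' deposited table. MCM7 stood at -1.91 ± 0.0585 in the authors' deposited table (adjusted p = 4.18e-232), or 3.77-fold lower. MCM4, MCM5, MCM2 and MCM7 thus kept 23.6% to 26.6% of their DMSO level. MCM3 fell less, by 3.30-fold (95% interval 3.05 to 3.57), with -1.72 ± 0.0581 in the authors' deposited table. MCM6 fell least, by 2.67-fold (2.44 to 2.92), with -1.42 ± 0.0653 (adjusted p = 3.35e-102) in the authors' deposited table. It kept 37.5% of its DMSO level. The ring's log2 fold changes spanned 0.67, with a median of -1.98 and an SD over the 6 genes of 0.27.

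Both loading factor genes fell, and their fold changes differed by 0.0086 on the log2 scale, with a combined SE of 0.27. CDC6, an ATPase that joins the origin recognition complex, was 4.46-fold lower, at -2.16 ± 0.0757 (implied SE, adjusted p = 6.60e-176) in the authors' deposited table. CDT1, which carries the MCM ring to the origin, was 4.43-fold lower, at -2.15 ± 0.259 (adjusted p = 1.44e-15) in the authors' deposited table. The implied SE of CDT1 was the largest of the set, the next being 0.0902 for MCM5, and its 95% interval ran from 3.12-fold to 6.30-fold. The position of CDT1 in the order is therefore loose.

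The activation factor genes gave the largest falls, though the wide 95% interval of CDT1 covered the values of both. MCM10 was 5.84-fold lower (95% interval 5.29 to 6.45), at -2.55 ± 0.0731 (implied SE, adjusted p = 1.29e-262) in the authors' deposited table. It kept 17.1% of its DMSO level. CDC45, a part of the moving helicase, was 5.51-fold lower (4.94 to 6.14), at -2.46 ± 0.0800 (adjusted p = 1.74e-205) in the authors' deposited table. Of all falls, MCM10 ranked 41 and CDC45 63, and among genes with an implied SE of 0.2 or less they ranked 26 and 47. Their 95% intervals did not overlap those of any of the 6 ring genes.

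Ordered from the largest fall, the genes ran MCM10, CDC45, CDC6, CDT1, MCM4, MCM5, MCM2, MCM7, MCM3 and MCM6. Neighbours were compared by their difference and its 95% interval, taking the errors of genes as independent, although all share the same libraries. Of the 9 steps, 3 went beyond that interval: from CDC45 to CDC6 (0.31 on the log2 scale), from MCM7 to MCM3 (0.19) and from MCM3 to MCM6 (0.31). The other 6 steps stayed within it. These intervals were adjusted neither for the 9 comparisons nor for ordering the genes by the same values. The step from MCM7 to MCM3 was the least clear of the 3, at 2.29 times its combined SE.

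**Figure D2:**
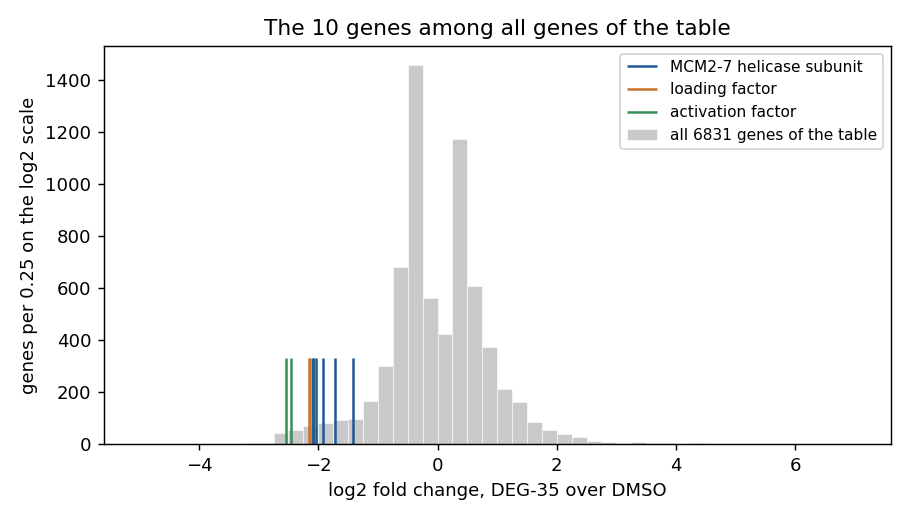
Histogram of the log2 fold changes (DEG-35 over DMSO, bins of 0.25) of all 6831 genes of the table in grey, with a vertical line for each of the 10 genes, coloured by role. The lines lie between -2.55 and -1.42, in the left tail, while the median of all genes is -0.19.

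The rest of the licensing and firing system was also mostly lower. Of 57 further genes in the lists around licensing, firing and their control, 48 were listed in the authors' deposited table, 46 lower and 2 higher, with a median of -1.67. Listed genes made up 84.2% of these genes, and 45.3% of all genes tested. The lists were chosen with earlier results known and may include untested genes, so these shares cannot be compared directly.

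Within the origin recognition complex, which marks origins, 3 of 6 genes were listed and lower, and ORC2, ORC4 and ORC5 were not listed: each failed the threshold or was not tested. ORC6 stood at -2.19 ± 0.0960 (implied SE) and ORC1 at -2.13 ± 0.0753, close to CDC6, in the authors' deposited table. ORC3 stood at -0.84 ± 0.0800, a smaller fall, in the authors' deposited table. GMNN encodes geminin, which blocks CDT1 and so prevents a second licensing. It was lower together with the loading factors, at -1.68 ± 0.0712 in the authors' deposited table.

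All 4 genes of the GINS complex, the partner of CDC45 in the active helicase, were lower. GINS2 stood at -2.28 ± 0.108 (implied SE) and GINS1 at -2.22 ± 0.0824 in the authors' deposited table. GINS3 at -1.79 ± 0.0899 and GINS4 at -1.78 ± 0.0780 followed in the authors' deposited table. All 13 genes of firing kinases and firing factors were listed, every one lower, and their median was -1.67. TICRR, which with MTBP brings CDC45 to origins, led them at -2.48 ± 0.0837 in the authors' deposited table, next to the cyclin gene CCNA2 at -2.37 ± 0.0702 and the phosphatase gene CDC25A at -2.33 ± 0.0877. CDC7, the kinase that phosphorylates the MCM ring, stood at -1.95 ± 0.0915, and its activating subunit DBF4 at -0.86 ± 0.0787, the smallest fall of that list, in the authors' deposited table.

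Of the 5 other genes with MCM in their name, 4 were lower and 1 higher. MCM8, a helicase-related gene that acts in recombination, stood at -1.86 ± 0.0769 (implied SE) in the authors' deposited table. Its partner MCM9 stood at -0.52 ± 0.0852 and MCMBP, whose product binds MCM subunits, at -0.76 ± 0.0652 in the authors' deposited table. MCM3AP, which encodes an mRNA export factor and not a helicase subunit, stood at -0.14 ± 0.0574 in the authors' deposited table. MCMDC2 was higher, at 0.20 ± 0.0882 (adjusted p = 0.0486) in the authors' deposited table. MCM3AP and MCMDC2 lost their call with a threshold of 0.01.

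Of 9 genes whose products turn over CDT1 and CDC6, 7 were listed, 6 lower and 1 higher. DTL, which directs CDT1 to degradation during S phase, stood at -2.08 ± 0.0726 (implied SE), and CCNF, which targets CDC6, at -1.99 ± 0.0826 in the authors' deposited table. DDB1, the adaptor of the ligase that uses DTL, was higher at 0.13 ± 0.0549 in the authors' deposited table. The scaffold genes of that ligase, CUL4A and CUL4B, were not listed. The call for DDB1 was also lost with a threshold of 0.01. All 6 genes of fork protection and helicase unloading were lower, with a median of -1.81, among them CLSPN at -2.14 ± 0.0846 in the authors' deposited table.

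Of 13 E2F and pocket protein genes, 9 were listed and all 9 lower, with a median of -1.47. E2F2 at -2.62 ± 0.113 (implied SE), E2F8 at -2.47 ± 0.0902 and E2F1 at -2.27 ± 0.103 had the largest falls in the authors' deposited table. E2F1 and E2F2 are activators and E2F8 a repressor of genes of this kind. E2F3, another activator, stood at -0.31 ± 0.0651 in the authors' deposited table, and E2F4, E2F5, TFDP2 and RBL2 were not listed. E2F6, at -0.26 ± 0.111 (adjusted p = 0.0389) in the authors' deposited table, lost its call with a threshold of 0.01.

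**Figure D3:**
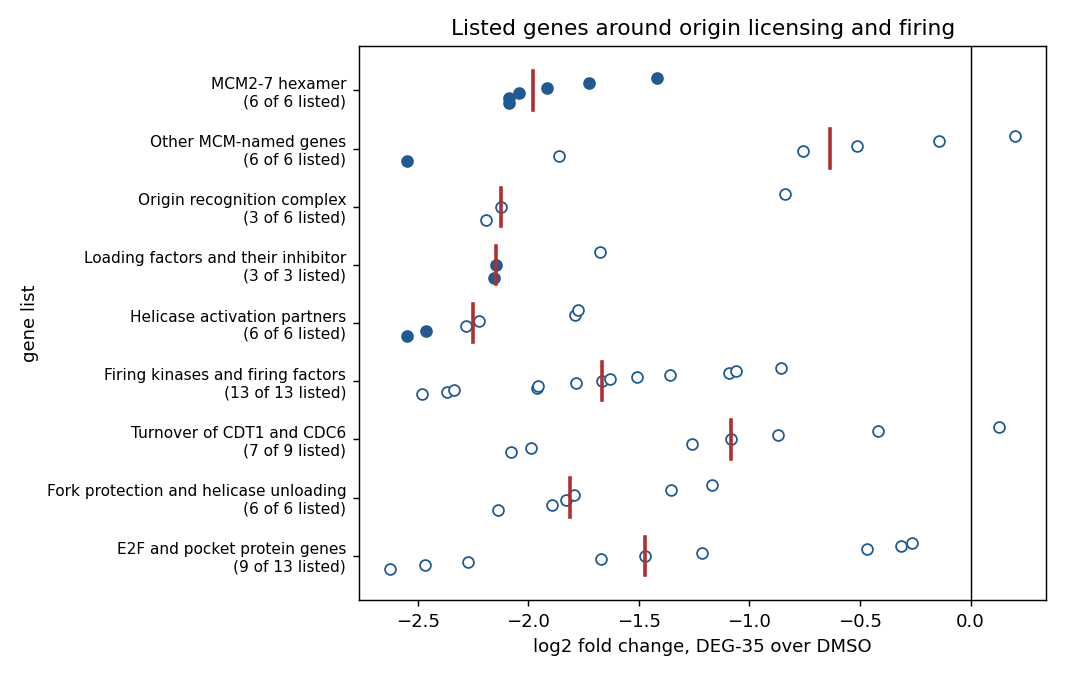
Log2 fold change (DEG-35 over DMSO) of every listed gene in 9 gene lists. Filled points are the 10 genes, open points other genes, and red bars list medians; MCM10 stands in 2 lists. The medians run from -2.25 for the helicase activation partners to -0.64 for other MCM-named genes.

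The genes beside the members on the chromosome were looked up next. By GENCODE release 29 on GRCh38, 20 protein-coding genes neighbour the 10 members, and 6 of them (30.0%) were listed, 5 lower (25%) and 1 higher. Of all genes tested, 45.3% were listed and 24.0% listed as lower. The neighbours were taken from the annotation and may include untested genes, so these shares cannot be compared directly. In 4 pairs the neighbour starts within 2000 bases on the other strand, a layout in which one stretch of DNA can serve as promoter for both genes. CDC45 at -2.46 is paired with UFD1L (current symbol UFD1, protein degradation), which stood at -0.62 ± 0.0819 (implied SE) in the authors' deposited table with starts 244 bases apart. MCM4 at -2.08 is paired with PRKDC, the catalytic subunit of a DNA repair kinase, at -0.61 ± 0.0553 in the authors' deposited table. MCM7 at -1.91 is paired with AP4M1, a vesicle adaptor subunit, at -0.41 ± 0.127 in the authors' deposited table, and these genes overlap, so reads of their shared stretch can be told apart only by strand, and the sources used here do not say whether strand was used in counting. TPRA1, which overlaps MCM2 and has its start 44 bases away, was not listed. In the 3 pairs with both genes listed, the 95% intervals did not overlap.

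**Figure D4:**
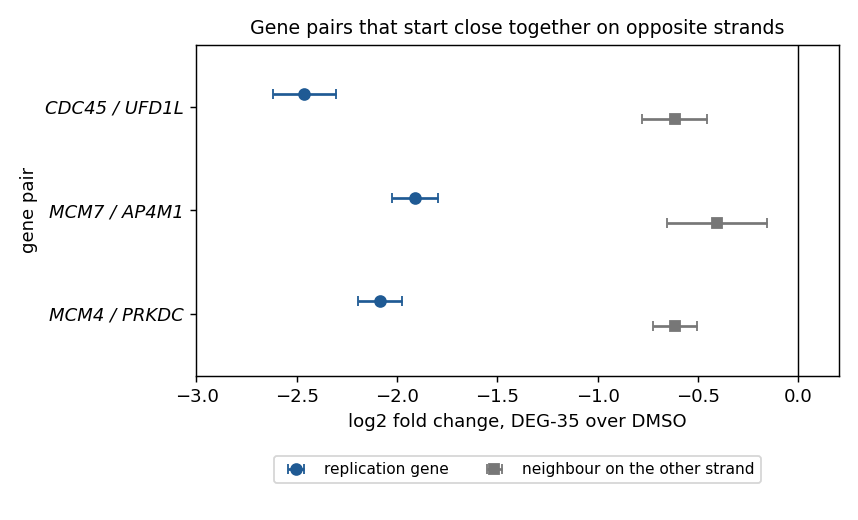
Log2 fold change (DEG-35 over DMSO) of CDC45, MCM7 and MCM4 (circles) and of the gene that starts close by on the other strand (squares), with 95% intervals from the implied SE. In each pair the circle lies further left, as for CDC45 at -2.46 and UFD1L at -0.62.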

How the data were processed

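Libraries made with an mRNA kit from total RNA of 6 samples (3 per group) underlie 1 table that the authors deposited. Per the file headers its columns are the log2 fold change, the raw p-value and the adjusted p-value of each gene. The submitters' processing notes name hg19, STAR, featureCounts and DESeq2, without versions or roles. No deposited adjusted p reaches 0.05, so genes above it are not analysed here. Adjusted p times rank over p gave 15064 tests for 2789 of 2789 genes with p above 1e-04, within 0.1%. Depth is unknown.

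The members and lists were chosen with earlier results of these data known. All members, and genes of the fixed lists that passed, were open to naming. Calls are the authors' own, by adjusted p. The implied SE is the absolute log2 fold change over the normal quantile of p, with 2.2e-308 for a p of 0, and 95% intervals are normal. The test of a fall beyond 1 used these SEs, and its code was tested on simulated data. Older symbols were matched through RefSeq and gene name tables. Promoters were matched for 39 of 46 lower list genes and 2926 of 3613 lower genes. Alternatives were stricter thresholds, Bonferroni adjustment, a shift of 0.3, larger SEs and other motif windows. Software was SciPy 1.17.1, NumPy 2.4.6 and pandas 2.3.3 under Python 3.11.15, with Matplotlib 3.10.9 for figures.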

Additional observations from a re-analysis of the deposited data

How the results depend on the processing

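All 10 members stayed lower at an adjusted p of 0.01, with a minimum absolute log2 fold change of 1, under both Bonferroni adjustments and with all fold changes shifted by 0.3 either way. The smallest fall was -1.42 and the largest of the authors' adjusted p-values 1.44e-15, so none of these settings could have changed that count. Counting only genes whose implied SE was 0.2 or less, a setting chosen after seeing the data, left 9, without CDT1. Their median log2 fold change of -2.08 became -1.98 for MCM2 to MCM7 alone, -2.38 with a shift down by 0.3 and -1.78 with a shift up, by construction. A fall beyond 1.5 in place of 1 was met by 8 members, without MCM6 and CDT1, and by 202 in place of 366 lower genes of the table. With a shift up by 0.3, a fall beyond 1 was met by 9 members, without MCM6. The other pathway genes that were lower numbered 36 to 48 over these settings, 46 as reported. The E2F share of the members stayed at 75.0% with 1 more T or a window from 100 bases before the start, but the shares beside it fell. With 1 more T they were 51.3% of the other pathway genes, 10.4% of lower genes and 4.0% of all genes. With the shorter window they were 61.5%, 21.6% and 8.7%. Leaving out libraries and other count models were not run, as the table has no per-library values. No paired analysis was possible because the values are 1 comparison per gene and carry no replicate numbers.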

Other observations

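MCM7 carries 3 microRNA genes inside it on the same strand, MIR106B, MIR93 and MIR25, and 1 of them, MIR25, was in the authors' deposited table, a gene picked after its value was seen. It stood at -1.11 ± 0.349 (implied SE, adjusted p = 0.00427) in the authors' deposited table, against -1.91 ± 0.0585 for its host MCM7. MIR93 and MIR106B were not listed. A value from mRNA libraries does not measure the mature microRNA, and the sources used here do not say how reads that MIR25 shares with MCM7 were assigned. The mature sequences of this gene, from RefSeq on GRCh38.p14, are given with the seed (bases 2 to 8) in capitals.

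hsa-miR-25-3p: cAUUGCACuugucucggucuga
hsa-miR-25-5p: aGGCGGAGacuugggcaauug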
